A study of Mus musculus with 8 samples.

Results

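Accessible chromatin at 62 mouse protein-coding genes whose symbol starts with Serpin, out of 21887 protein-coding genes in the RefSeq annotation of build mm10, was compared among 5 ATAC-seq peak lists of mouse liver cells. The members were defined by their symbol, with earlier results of these data known, and 6 serpin symbols annotated as pseudogenes were left out. The letter after Serpin names the clade: 24 genes belong to clade a, 28 to clade b, 1 each to clades c, d, g and h and 2 each to clades e, f and i. Of the clade a genes, 23 stand in a cluster on chromosome 12 and Serpina7 stands on chromosome X, whereas clade b is divided between chromosome 1 (12 genes) and chromosome 13 (16 genes).

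ATAC-seq uses a transposase that cuts and tags DNA where chromatin is open, and a peak marks a stretch with more cuts than its surroundings. The series covers early and macroscopic hepatocellular carcinoma lesions of the Rb family triple knockout mouse, and the cells were sorted for YFP, which reports that Cre has been active. Among 8 labelled samples, 2 are EpCAM-high and 2 are Thy1-positive with CK19 in their names, 1 of each kind has Sox9 in its name, and 2 are EpCAM-negative, which makes 5 groups. The lists are EpCAM-high and Prog-like for both CK19 and Sox9, and Tumor for Sox9. Where 5 values stand in a row, the EpCAM-high pair comes first, then the Prog-like pair, each with CK19 before Sox9, and Tumor Sox9 comes last. All 5 groups share this sorting for YFP, and no list named as cells with intact Rb family genes was used here. The labels give no strain, age or sex, name no promoter driving Cre, and do not say what CK19 and Sox9 stand for. The names EpCAM-high match sample groups, whereas the names Prog-like and Tumor match no label, so those 3 lists carry the submitters' names and no sorted population. Each condition has 1 list and read depth is unknown, so the spread between animals cannot be given and no difference between lists was tested.

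Serpins are a family of proteins most of which block proteases by acting as bait: the protease cuts an exposed loop, the serpin snaps into a new shape and the enzyme stays trapped. The liver is the main source of the serpins of blood plasma, which include the clade a inhibitors, antithrombin, heparin cofactor II, antiplasmin and C1 inhibitor. Clade b serpins mostly stay inside cells, where they are known from leukocytes and from surface epithelia and guard cells against proteases of granules and lysosomes. A few members, such as the hormone carriers Serpina6 and Serpina7 and the collagen chaperone Serpinh1, inhibit no protease.

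A gene-end peak is a peak that overlaps by at least 1 bp the 1000 bp on either side of a gene's start or end. The serpins had fewer gene-end peaks than the average gene in every list, and the most in Tumor Sox9. Gene-end peaks were found at 9, 12, 14, 13 and 23 of the 62 serpins, which is 14.5% (6.86 to 25.8), 19.4% (10.4 to 31.4), 22.6% (12.9 to 35.0), 21.0% (11.7 to 33.2) and 37.1% (25.2 to 50.3), with 95% Clopper-Pearson limits for counting error. Among all protein-coding genes the shares were 57.8%, 57.7%, 57.4%, 54.4% and 51.1%, so the list with the lowest share over all genes had the highest share over serpins. The lists hold 39644 (Tumor Sox9) to 71375 (Prog-like CK19) peaks, and a longer list can reach weaker sites. With every list reduced to its 39644 strongest peaks by −log10 p, the serpin counts were 8, 9, 10, 8 and 23, and the shares over all genes 53.2%, 51.1%, 48.1%, 45.9% and 51.1%. The Tumor Sox9 list keeps its weak peaks in that comparison, because it is the shortest. With a −log10 q of at least 5 asked of every peak, the counts were 8, 11, 14, 13 and 14, and the shares over all genes 55.1%, 54.4%, 55.8%, 53.0% and 47.6%. Tumor Sox9 thereby kept 60.9% of its serpin calls, against 93.2% of its calls over all genes, while both Prog-like lists kept 100% of theirs.

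**Figure D1:**
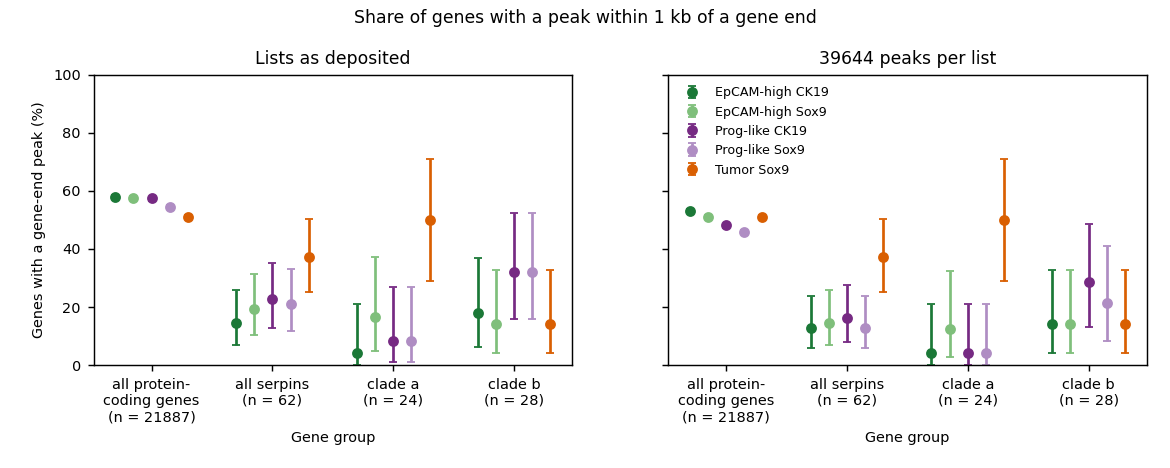
Share of genes with a gene-end peak (vertical axis, %) for all protein-coding genes, all serpins, clade a and clade b (horizontal axis) in the 5 lists (colours), as deposited on the left and at 39644 peaks per list on the right; bars are 95% Clopper-Pearson intervals for counting error. Tumor Sox9 stands at 12 of 24 genes in clade a, and the Prog-like lists stand at 9 of 28 genes each in clade b as deposited.

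The 2 large clades had their highest counts in different lists, and neither exceeded the share of all genes. Clade a had gene-end peaks at 1, 4, 2, 2 and 12 of 24 genes, and clade b at 5, 4, 9, 9 and 4 of 28 genes. The limits around 12 of 24 clade a genes in Tumor Sox9 are 29.1% to 70.9%, which hold the 51.1% of all genes, and the other lists ran from 4.17% to 16.7%. The 9 clade b genes of the Prog-like lists are 32.1% (15.9 to 52.4) in each, below the 57.4% and 54.4% of all genes. At equal list length the counts were 1, 3, 1, 1 and 12 for clade a and 4, 4, 8, 6 and 4 for clade b. With the −log10 q of at least 5, clade a stood at 1, 4, 2, 2 and 7 genes and clade b at 4, 4, 9, 9 and 2. Over the clades other than b, 19 of 34 genes had a gene-end peak in Tumor Sox9 (55.9%, 37.9 to 72.8), near the 51.1% of all genes, and 4, 8, 5 and 4 in the other lists, which is 11.8% to 23.5%.

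Peaks of the wider locus, meaning the gene body and 10 kb on each side with a peak shared by neighbours counted once, followed the same division by clade. The 62 loci cover 2.16 Mb and held 42, 56, 92, 87 and 60 distinct peaks, or 19.4, 25.9, 42.5, 40.2 and 27.7 per Mb. Loci of all protein-coding genes held 28.2, 31.5, 39.9, 37.5 and 20.9 per Mb. Clade a held 8, 13, 19, 17 and 28 locus peaks and clade b held 26, 34, 57, 57 and 15. At equal list length the clade a counts were 7, 11, 8, 7 and 28, and the clade b counts 23, 20, 36, 38 and 15. The smaller clades held 0, 0, 1, 1 and 4 (c), 1, 2, 0, 0 and 3 (d), 1, 3, 7, 5 and 1 (e), 0, 0, 1, 1 and 4 (f), 3, 2, 2, 2 and 3 (g), 0, 1, 0, 0 and 0 (h) and 3, 1, 5, 4 and 2 (i). The median serpin held 0, 0, 1, 1 and 1 locus peaks, against 2, 2, 2, 2 and 1 for all protein-coding genes. No list had a locus peak at 12 serpins (19.4%, against 15.7% of all genes): Serpina1a, Serpinb3a to Serpinb3d, Serpinb6d, Serpinb9d to Serpinb9h and Serpine3.

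**Figure D2:**
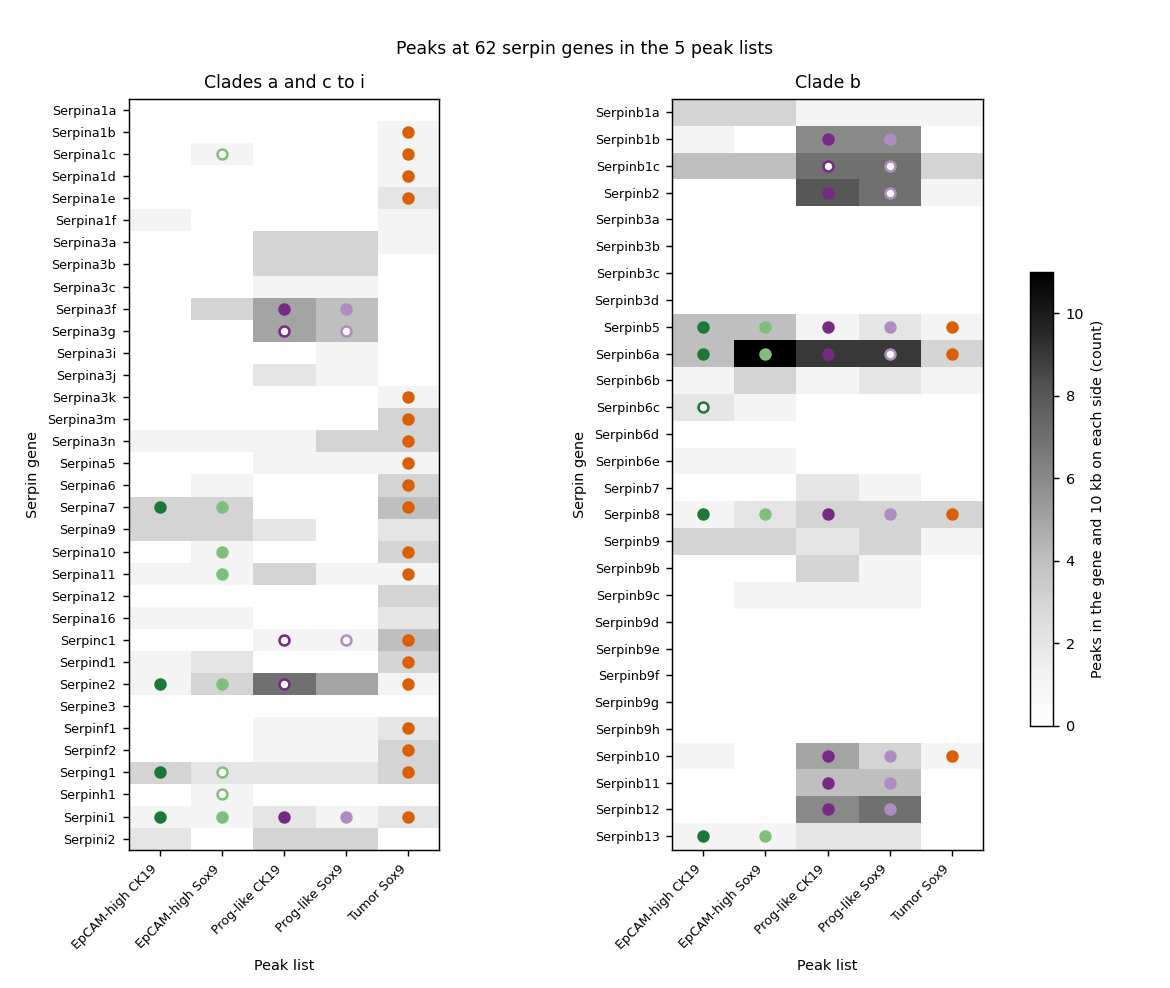
Each row is a serpin gene and each column a peak list; the grey level counts the peaks in the gene and 10 kb on each side, a circle marks a gene-end peak, and a filled circle one that is still present at 39644 peaks per list. Circles of the left panel are most frequent in the Tumor Sox9 column, and dark cells of the right panel lie mostly in the Prog-like columns, with the exception of Serpinb6a.

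Some markers of the liver's cell types also differed between the lists, and their part in the serpin results was not tested. Hepatocyte markers (Alb, Ttr, Apoa1, Hnf4a, Cps1, Fgb and Tat) had gene-end peaks at 4, 5, 0, 0 and 7 of 7 genes. Macrophage markers (Adgre1, Csf1r, Cd68, Lyz2, Clec4f, Marco and Vsig4) stood at 0, 1, 7, 7 and 0 of 7, neutrophil markers at 0, 1, 2, 2 and 0 of 5 and endothelial markers at 1, 0, 3, 3 and 0 of 5. Bile duct markers stood at 7, 7, 3, 1 and 3 of 7, mesenchymal markers at 2, 2, 2, 1 and 2 of 5, and T and NK cell markers at 1, 0, 0, 0 and 0 of 5. The shares over all protein-coding genes were 57.8%, 57.7%, 57.4%, 54.4% and 51.1%. Fewer cells of a type and less open chromatin per cell cannot be told apart in bulk lists.

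The Serpina1 genes, which encode the mouse forms of alpha-1-antitrypsin, the plasma inhibitor of neutrophil elastase, had gene-end peaks at 0, 1, 0, 0 and 4 of 6 genes. The 4 genes of Tumor Sox9 are 66.7% (22.3 to 95.7), and these limits hold the 51.1% of all protein-coding genes. The other lists ran from 0% to 16.7%, against 54.4% to 57.8% of all genes. In Tumor Sox9 the peaks lay over the starts of Serpina1b, Serpina1c, Serpina1d and Serpina1e. The fold enrichment that the submitters' peak caller assigned was 8.54 at Serpina1b (−log10 q 16.3) and 6.67 at Serpina1c, but 4.50 at both Serpina1d and Serpina1e (−log10 q 4.30). These peaks rank at percentiles 83.1, 63.4, 32.1 and 32.1 of the folds in their list, so the last pair is weak. Serpina1c alone also had a peak in another list, EpCAM-high Sox9 (fold 5.22, −log10 q 5.82), and it was lost at equal length. Serpina1a was without a peak within 10 kb throughout, the nearest lying 41292 bp away in Tumor Sox9 and EpCAM-high Sox9. Serpina1f, the most divergent copy, held 1, 0, 0, 0 and 1 locus peaks and none at a gene end.

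The promoters of Serpina1a to Serpina1e are printed because the copies differ in their peaks while their promoters share much sequence. This set was added after the values were seen. All promoters shown run from 250 bases before to 50 after the start, come from RefSeq (GRCm38.p6, the build mm10), and are written 5′ to 3′ along the gene's strand. Capitals mark matches to short motifs on either strand: HNF1 (GTTAATNA), HNF4 (CAAAGTCCA), CEBP (TTGCNNAA), TEAD (GGAATG), AP-1 (TGANTCA), PU.1 (GAGGAAGT), the GC box (GGGCGG) and the TATA box (TATAAA). None of these letter patterns contains another.
Serpina1a, chr12:103863570-103863869, minus strand: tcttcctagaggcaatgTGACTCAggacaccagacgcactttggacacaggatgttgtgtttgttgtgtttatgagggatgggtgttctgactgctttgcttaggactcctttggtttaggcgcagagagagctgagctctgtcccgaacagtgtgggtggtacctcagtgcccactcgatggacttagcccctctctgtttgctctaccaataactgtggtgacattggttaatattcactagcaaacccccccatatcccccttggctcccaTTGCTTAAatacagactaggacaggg
Serpina1b, chr12:103738140-103738439, minus strand: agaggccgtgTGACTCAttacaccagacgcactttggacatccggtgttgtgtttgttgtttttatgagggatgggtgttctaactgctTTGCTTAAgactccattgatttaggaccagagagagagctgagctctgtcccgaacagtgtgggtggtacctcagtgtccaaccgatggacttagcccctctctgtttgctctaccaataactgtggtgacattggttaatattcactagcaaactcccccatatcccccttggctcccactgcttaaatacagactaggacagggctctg
Serpina1c, chr12:103904901-103905200, minus strand: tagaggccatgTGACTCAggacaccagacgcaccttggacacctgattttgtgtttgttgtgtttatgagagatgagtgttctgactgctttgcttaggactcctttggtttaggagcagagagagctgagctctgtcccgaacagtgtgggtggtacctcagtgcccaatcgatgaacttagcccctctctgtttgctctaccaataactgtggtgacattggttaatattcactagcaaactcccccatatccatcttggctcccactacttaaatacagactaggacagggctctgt
Serpina1d, chr12:103773584-103773883, minus strand: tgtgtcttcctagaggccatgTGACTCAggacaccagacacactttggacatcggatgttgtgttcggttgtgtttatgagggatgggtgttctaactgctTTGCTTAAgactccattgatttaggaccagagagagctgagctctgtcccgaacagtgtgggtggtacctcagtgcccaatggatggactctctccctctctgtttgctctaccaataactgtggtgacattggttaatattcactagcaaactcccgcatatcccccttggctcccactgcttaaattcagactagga
Serpina1e, chr12:103956848-103957147, minus strand: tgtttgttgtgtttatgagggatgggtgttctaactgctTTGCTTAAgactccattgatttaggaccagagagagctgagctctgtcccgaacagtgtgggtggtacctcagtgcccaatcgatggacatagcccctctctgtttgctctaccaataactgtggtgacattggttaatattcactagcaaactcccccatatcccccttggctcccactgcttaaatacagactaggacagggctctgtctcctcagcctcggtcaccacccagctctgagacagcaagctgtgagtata
Aligned over their length, the Serpina1a promoter shares 89.3% of positions with that of Serpina1b and 91.2% with that of Serpina1c. The Serpina1e window gave 63.9% (Serpina1d) to 69.3% (Serpina1b) against Serpina1a to Serpina1d, but it begins further along the shared sequence. The same CEBP match stands at base 40 in Serpina1e and at base 90 in Serpina1b, so unmatched window ends lower these values. Over the 15 pairs of Serpina1a to Serpina1f promoters the identity ran from 48.0% to 91.4% with a median of 67.5%. Of the 251 stretches of 50 bases in each promoter, an identical copy in another member's promoter was found for 10.8% (Serpina1a), 37.5% (Serpina1b), 15.9% (Serpina1c), 31.9% (Serpina1d), 56.2% (Serpina1e) and 0% (Serpina1f). Reads from such stretches can fit several copies, and how they were placed is not given in the sources used here, so the division of the Tumor Sox9 peaks among the copies is uncertain. An AP-1 match stood in the 4 promoters of Serpina1a to Serpina1d and a CEBP match in all but Serpina1c. Serpina1a, without a peak, and Serpina1b, with the highest fold, both held an AP-1 and a CEBP match. Their CEBP matches are different sites, at base 275 in Serpina1a and at base 90 in Serpina1b.

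The carriers and the other plasma members of clade a also had most of their gene-end peaks in Tumor Sox9. Serpina7 (thyroxine-binding globulin, chrX:139079249-139085236) had peaks at both gene ends in both EpCAM-high lists and in Tumor Sox9 and no peak within 10 kb in either Prog-like list. Its start peak had folds of 6.11, 6.85 and 4.15 in those 3 lists, and the peak at its other end 11.5, 13.5 and 5.27. The start peak lies within 1 kb of an end of the gene 4930513O06Rik as well. Serpina7 came first in alphabetical order among the members with a peak in both EpCAM-high lists and neither Prog-like list at both lengths; its promoter holds a TEAD, a CEBP and a TATA box match.
Serpina7, chrX:139085187-139085486, minus strand: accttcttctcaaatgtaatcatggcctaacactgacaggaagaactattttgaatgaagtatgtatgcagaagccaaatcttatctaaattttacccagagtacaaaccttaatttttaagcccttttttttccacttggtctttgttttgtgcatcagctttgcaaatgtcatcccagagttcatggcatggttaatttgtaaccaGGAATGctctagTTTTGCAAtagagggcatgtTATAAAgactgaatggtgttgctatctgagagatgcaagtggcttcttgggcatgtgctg
Serpina10, the protein Z-dependent inhibitor of coagulation factor Xa, carried 1 gene-end peak in EpCAM-high Sox9 (fold 7.87) and 2 in Tumor Sox9 (7.23 and 5.38). Serpina11 had a start peak in the same lists, with folds of 8.03 and 5.89, and each Prog-like list had a peak of fold 12.5 inside that gene. Serpina6 (corticosteroid-binding globulin) had a gene-end peak in Tumor Sox9 alone (fold 3.59, −log10 q 4.0), and so did Serpina5 (protein C inhibitor; 4.55, 5.46). At Serpina6 this rests on the 1000 bp limit, since EpCAM-high Sox9 had a peak 2056 bp from the gene (6.24, 8.43). At Serpina5 both Prog-like lists had a peak inside the gene instead (12.1 and 13.3), and the Tumor Sox9 peak lies 596 bp beyond the gene's far end. Among clade a genes without a gene-end peak, Serpina9 held 3, 3, 2, 0 and 2 locus peaks, and a peak inside the gene reached a fold of 15.0 in the CK19 and 13.2 in the Sox9 list of EpCAM-high cells. Serpina12 (vaspin, known as an adipokine) held 0, 0, 0, 0 and 3 locus peaks, the highest with a fold of 9.24, which is percentile 88.1 of Tumor Sox9. Serpina16 held 1, 1, 0, 0 and 2.

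The Serpina3 genes, the mouse expansion of human antichymotrypsin, were split between Prog-like and Tumor lists within 1 stretch of chromosome 12. Serpina3f and Serpina3g had start peaks in both Prog-like lists and no other, whereas Serpina3k, Serpina3m and Serpina3n had gene-end peaks in Tumor Sox9 and no other. The Serpina3f start peak (chr12:104213946-104214875 in Prog-like CK19) had folds of 11.2 and 10.8 and −log10 q of 66.2 and 39.7. The Serpina3g start peak was weaker, at 4.66 and 4.38, and was lost at equal length in both. In Tumor Sox9 the folds were 4.50 at Serpina3k, 6.71 at Serpina3m and 4.15 at Serpina3n, with −log10 q of 4.30, 13.4 and 4.77. At Serpina3n the pattern rests on the 1000 bp limit, since its locus held 1, 1, 1, 3 and 3 peaks. EpCAM-high Sox9 had a peak 1265 bp beyond that gene (fold 14.3) and Prog-like Sox9 had one 1321 bp beyond it (4.60). The 10 Serpina3 loci held 1, 4, 15, 16 and 7 distinct peaks, and 1, 3, 7, 6 and 7 at equal length, so the Prog-like lists exceeded Tumor Sox9 as deposited but not at equal length. Serpina3a and Serpina3b have no gene-end peak and share 2 of their peaks: each held 3 locus peaks in both Prog-like lists, and the peak inside Serpina3b had folds of 15.4 and 20.1. The Serpina3f promoter, first of the members with a peak in both Prog-like lists and neither EpCAM-high list at both lengths, holds 2 CEBP matches and a TATA box match on the opposite strand.
Serpina3f, chr12:104214294-104214593, plus strand: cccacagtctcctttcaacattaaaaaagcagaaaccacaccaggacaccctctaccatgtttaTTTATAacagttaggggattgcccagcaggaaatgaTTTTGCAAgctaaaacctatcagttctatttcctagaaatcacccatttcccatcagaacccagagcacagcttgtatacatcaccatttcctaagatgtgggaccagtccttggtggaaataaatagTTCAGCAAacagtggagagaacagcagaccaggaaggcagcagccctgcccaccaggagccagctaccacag

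**Figure D3:**
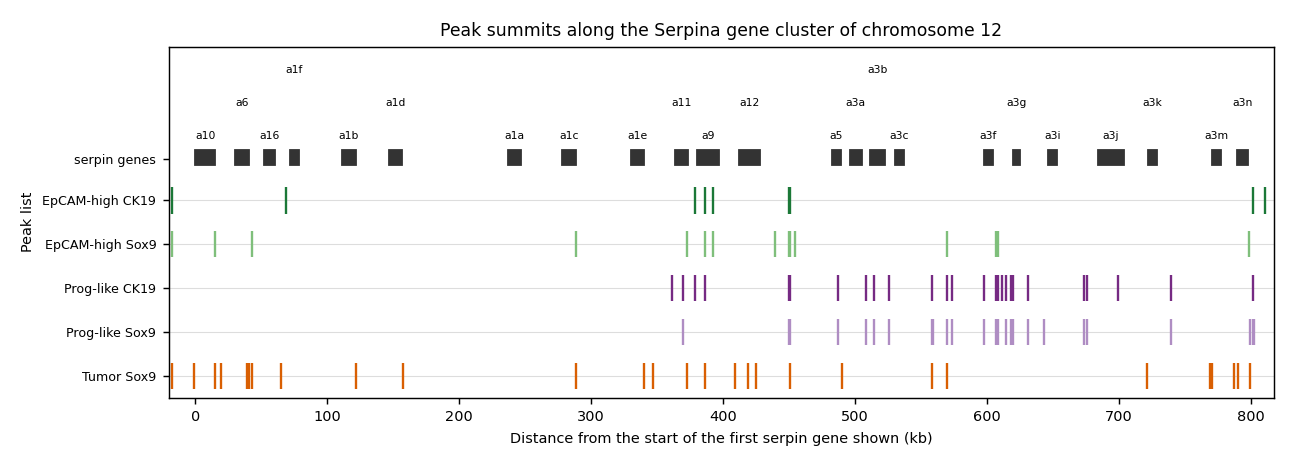
Vertical ticks are peak summits of the 5 lists (rows) along the chromosome 12 cluster, against the distance in kb from the start of the first serpin gene; dark boxes are serpin genes, written without the prefix Serpin. The stretch around a1a holds no tick in any list, the Prog-like ticks gather from a5 to a3j, and most Tumor Sox9 ticks stand on both sides of that stretch.

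Clade b on chromosome 1 held its peaks mostly in the Prog-like lists, with 7, 7, 28, 27 and 6 distinct locus peaks, and 7, 5, 18, 20 and 6 at equal length. The Prog-like lists held 63.9 and 61.6 of these peaks per Mb, against 39.9 and 37.5 for all protein-coding genes. The other lists stood below the density of all genes. Gene-end peaks stood at 3, 3, 6, 6 and 3 of 12 genes. The limits around 6 genes are 21.1% to 78.9%, which hold the 57.4% and 54.4% of all genes in the Prog-like lists. Around 3 genes they are 5.49% to 57.2%, against 57.8% and 57.7% in the EpCAM-high lists and 51.1% in Tumor Sox9. Serpinb2, the plasminogen activator inhibitor that activated macrophages make, held 0, 0, 8, 7 and 1 locus peaks. The strongest inside the gene had folds of 14.0 and 14.7 in the Prog-like lists, at different places, and the single Tumor Sox9 peak 4.92. Its gene-end peaks lay at the far end, with folds of up to 6.68 (CK19) and 4.84 (Sox9) in the Prog-like lists, and the latter was lost at equal length. Serpinb10 (bomapin, known from blood-forming cells) had a start peak with folds of 7.75 and 10.6 in the Prog-like lists, and in Tumor Sox9 a weak peak at its other end (3.75, −log10 q 2.74). Serpinb11 had no start peak, but a peak beyond its far end with folds of 18.3 and 20.8, percentiles 98.0 and 97.8 of the Prog-like lists. Serpinb12 had peaks at both ends in the Prog-like lists, and the one beyond its far end had folds of 15.0 and 21.2. Neither EpCAM-high list nor Tumor Sox9 had any peak within 10 kb of Serpinb11 or Serpinb12. Serpinb7 (megsin) held 0, 0, 2, 1 and 0 locus peaks and the 4 Serpinb3 genes none.

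In this cluster the EpCAM-high lists had gene-end peaks at Serpinb5, Serpinb8 and Serpinb13 alone. Serpinb5 (maspin, known from epithelia of breast and skin) carried gene-end peaks in all 5 lists, but at different ends. The start peak was confined to the EpCAM-high lists among these 5, with folds of 16.6 and 17.4, percentiles 97.7 and 95.9, and −log10 q of 172 and 96.5. At the far end all 5 lists had a peak, with folds of 7.31 and 5.22 in the EpCAM-high lists and up to 9.01 and 9.41 in the Prog-like lists and 3.75 in Tumor Sox9 (−log10 q 2.74). Serpinb13, known from keratinocytes, carried a gene-end peak in each EpCAM-high list (8.33 and 12.1) and no gene-end peak in the other 3, although the Prog-like lists held 2 peaks each inside the gene. Serpinb8 had a start peak in all 5 lists, with folds of 12.3, 15.4, 14.3, 20.4 and 6.70, and the Prog-like lists had further peaks upstream of it with folds of at least 10.4. The promoters of Serpinb5 and Serpinb8, the first members with a gene-end peak in all 5 lists at both lengths, are shown with that of Serpinb10, the second of the Prog-like kind. A peak overlaps the printed Serpinb5 promoter in 2 lists, that of Serpinb8 in 5 and that of Serpinb10 in 1.
Serpinb5, chr1:106860925-106861224, plus strand: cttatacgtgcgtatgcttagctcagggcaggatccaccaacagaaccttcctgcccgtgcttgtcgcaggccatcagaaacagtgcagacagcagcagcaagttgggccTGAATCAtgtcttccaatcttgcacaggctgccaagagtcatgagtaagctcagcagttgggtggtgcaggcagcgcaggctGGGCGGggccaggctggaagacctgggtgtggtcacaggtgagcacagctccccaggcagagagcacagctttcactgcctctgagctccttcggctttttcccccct
Serpinb8, chr1:107589756-107590055, plus strand: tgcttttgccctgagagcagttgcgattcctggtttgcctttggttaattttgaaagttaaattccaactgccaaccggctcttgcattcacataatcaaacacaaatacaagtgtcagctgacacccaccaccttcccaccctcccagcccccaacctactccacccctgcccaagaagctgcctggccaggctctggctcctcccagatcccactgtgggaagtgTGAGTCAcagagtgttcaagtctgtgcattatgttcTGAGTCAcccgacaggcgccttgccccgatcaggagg
Serpinb10, chr1:107528753-107529052, plus strand: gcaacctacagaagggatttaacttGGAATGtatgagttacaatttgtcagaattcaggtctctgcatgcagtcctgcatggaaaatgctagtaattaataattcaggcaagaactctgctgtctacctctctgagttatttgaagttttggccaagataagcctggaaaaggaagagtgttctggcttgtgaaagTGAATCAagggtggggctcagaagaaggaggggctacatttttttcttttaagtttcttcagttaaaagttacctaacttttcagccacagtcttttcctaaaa
An AP-1 match stands in all 3, with 2 in Serpinb8, a GC box match in Serpinb5 and a TEAD match in Serpinb10. Serpinb13, the second member of the EpCAM-high kind, has no promoter shown.

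Clade b on chromosome 13 held 19, 27, 29, 30 and 9 distinct locus peaks, and 16, 15, 18, 18 and 9 at equal length, so at equal length the EpCAM-high and Prog-like lists stood within 3 peaks of each other. Serpinb1b and Serpinb1c, copies of the leukocyte elastase inhibitor, had a gene-end peak in both Prog-like lists and no other. The peak before Serpinb1b had folds of 8.12 and 9.67 (−log10 q 96.9 and 84.5), and the start peak of Serpinb1c 7.39 and 8.48, lost at equal length. The annotated start of Serpinb1b lies inside its gene span. There EpCAM-high CK19 also had a weak peak (3.41, −log10 q 3.18), beside 3.57 and 2.91 in the Prog-like lists. Serpinb1a had no gene-end peak, but a peak inside the gene in all 5 lists, with folds of 8.53, 11.2, 9.44, 10.4 and 8.25. Serpinb9, the inhibitor of granzyme B that protects cytotoxic cells, had a peak at its annotated transcription start in all 5 lists, with folds of up to 13.7, 12.8, 12.7, 15.8 and 9.30. That start lies inside the annotated gene span, so it counted as no gene-end peak. Serpinb6b likewise had a start peak in every list but Tumor Sox9, with a fold of 7.24 in EpCAM-high CK19, 5.55 in EpCAM-high Sox9 and 10.3 in Prog-like CK19. Serpinb9b held 0, 0, 3, 1 and 0 locus peaks, with 1 peak of fold 12.6 and 18.0 beyond the gene, and Serpinb9c 0, 1, 1, 1 and 0. The 5 genes Serpinb9d to Serpinb9h held none. Reads of these copies may not be unique: 58.6% of the 50-base stretches in the Serpinb9e promoter and 59.0% of those in Serpinb9f recur in another Serpinb9 promoter, against 0% for Serpinb9, Serpinb9b, Serpinb9c, Serpinb9d and Serpinb9h.

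Serpinb6a, an intracellular inhibitor made in many tissues, had a start peak in all 5 lists, with folds of 13.2, 14.9, 13, 14.6 and 8.65. This peak also lies at an end of Ripk1. In Prog-like Sox9 it carries a −log10 q of 7.24, against 48.1 to 177 in the other lists except Tumor Sox9 (18.5), and it was lost there at equal length although its fold is high. The locus held 4, 11, 9, 9 and 3 peaks, and 4, 4, 7, 6 and 3 at equal length. Serpinb6c had a start peak in both EpCAM-high lists, and in EpCAM-high CK19 a further weak one within reach of the gene end (3.19, −log10 q 3.76). Serpinb6e held 1, 1, 0, 0 and 0 locus peaks, a peak outside the gene with folds of 18.3 and 16.9, percentiles 99.1 and 95.2 of the EpCAM-high lists.

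**Figure D4:**
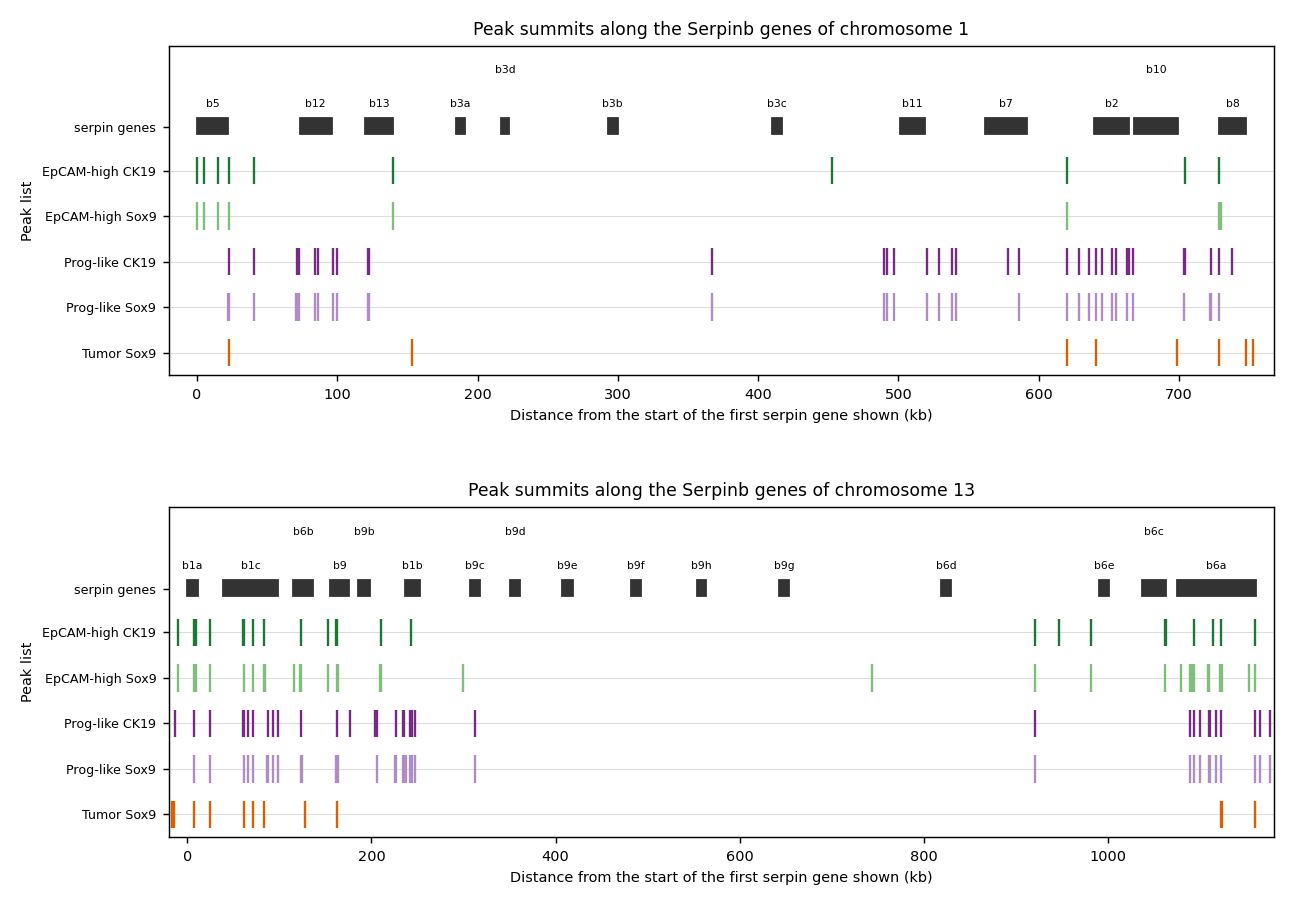
Vertical ticks are peak summits of the 5 lists (rows) along the clade b genes of chromosome 1 (top) and chromosome 13 (bottom), against the distance in kb from the start of the first gene; dark boxes are serpin genes, written without the prefix Serpin. On chromosome 1 the Prog-like ticks are dense at b12 and from b11 to b10, and on chromosome 13 the stretch from b9d to b6d is nearly empty in every list.

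The single-gene coagulation serpins had their start peaks in Tumor Sox9. Serpinc1 (antithrombin, the main inhibitor of thrombin) held 0, 0, 1, 1 and 4 locus peaks. Its start peak in Tumor Sox9 was weak (fold 3.05, −log10 q 3.10, percentile 3.69), and a peak inside the gene was stronger (6.04, 19.2). The Prog-like lists had a peak at the far end instead, with folds of 6.72 and 7.89, which also lies at an end of Zbtb37 and was lost at equal length. Serpind1 (heparin cofactor II) held 1, 2, 0, 0 and 3 locus peaks, and its start peak, which lies inside the gene body of Pi4ka as well, was found in Tumor Sox9 alone (5.19, 8.18). Beyond the far end of Serpind1, EpCAM-high Sox9 had 2 peaks (folds 9.07 and 8.40), EpCAM-high CK19 1 (4.63) and Tumor Sox9 1 (5.83). Serpinf2, the inhibitor of plasmin, held 0, 0, 1, 1 and 3 locus peaks and had a start peak in Tumor Sox9 alone (4.40, 5.76). Its neighbour Serpinf1 (pigment epithelium-derived factor, a serpin that inhibits no protease) held 0, 0, 1, 1 and 2, with a weak start peak in Tumor Sox9 alone (3.75, 2.74). Serping1 (C1 inhibitor, which blocks complement and contact proteases) carried a gene-end peak in each EpCAM-high list (6.66 and 5.22) and in Tumor Sox9 (6.55) and none in the Prog-like lists, which held 2 peaks each outside the gene.

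The remaining members showed no common pattern. Serpine2 (protease nexin, an inhibitor of thrombin on cell surfaces) had a start peak in every list but Prog-like Sox9, with folds of 7.40, 9.92, 4.05 and 5.04. It held 1, 3, 7, 5 and 1 locus peaks, and a peak inside the gene reached folds of 17.7 and 19.2 in the Prog-like lists. Serpinh1 (HSP47, the collagen chaperone) had 1 weak start peak, in EpCAM-high Sox9 (4.82, −log10 q 4.92), and no other locus peak. Serpini1 (neuroserpin, an inhibitor of tissue plasminogen activator) had a start peak in all 5 lists, with folds of 11, 13.2, 10.4, 12.2 and 8.21, and that peak also lies at an end of Pdcd10. Serpini2 held 2, 0, 3, 3 and 0 locus peaks with none at a gene end, and Serpine3 held none.

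The lists were also compared in pairs, by serpins with a gene-end peak in one list and not in the other. Tumor Sox9 had a gene-end peak and EpCAM-high Sox9 did not at 13 serpins (all genes: 2.57%), 8 of them in clade a, and the reverse held at 2 (9.17%), Serpinb13 and Serpinh1. Tumor Sox9 against Prog-like Sox9 gave 17 serpins (5.40%), of which 12 are in clade a and 0 in clade b, and the reverse 7 (8.69%), of which 5 are in clade b. With the −log10 q of at least 5, the 13 became 5 (2.51% of all genes) and the 17 became 11 (4.56%). Prog-like against EpCAM-high gave a count of 9 for the CK19 pair (6.50%) and 9 for the Sox9 pair (5.67%), and the genes were the same: Serpina3f, Serpina3g, Serpinb1b, Serpinb1c, Serpinb2, Serpinb10, Serpinb11, Serpinb12 and Serpinc1. At equal length 6 of them were left for CK19 (4.94% of all genes) and 5 for Sox9 (4.95%). The reverse gave 4 serpins for CK19 (6.94%) and 8 for Sox9 (8.98%). Pairs that share a list are not independent of each other.

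A gene-end peak in Tumor Sox9 and in no other list was found at 11 serpins (17.7%), against 1.24% of all protein-coding genes. They are Serpina1b, Serpina1d, Serpina1e, Serpina3k, Serpina3m, Serpina3n, Serpina5, Serpina6, Serpind1, Serpinf1 and Serpinf2, and their best −log10 q in Tumor Sox9 ran from 2.74 to 16.3 with a median of 4.77. Of the 11, 5 had a peak with a −log10 q of 5 or more: Serpina1b, Serpina3m, Serpina5, Serpind1 and Serpinf2. At equal length the count was 13 (2.62% of all genes). With a window of 2500 bp, which reaches peaks of other lists near genes such as Serpina3n, it was 7. Both Prog-like lists and no other had a gene-end peak at 7 serpins (11.3%), against 3.78% of all genes: Serpina3f, Serpina3g, Serpinb1b, Serpinb1c, Serpinb2, Serpinb11 and Serpinb12. At equal length 4 serpins had that pattern (2.54% of all genes). Hepatocyte markers had gene-end peaks at 4, 5, 0, 0 and 7 of 7 genes. Macrophage markers stood at 0, 1, 7, 7 and 0 of 7 and endothelial markers at 1, 0, 3, 3 and 0 of 5. The part of these markers in the serpin patterns was not tested. All 5 lists had a gene-end peak at 4 serpins (6.45%, against 44.2% of all genes): Serpinb5, Serpinb6a, Serpinb8 and Serpini1. No list had one at 29 serpins (46.8%, against 32.4%).

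Merged across lists, the peaks at serpin loci made 172 regions. A peak of both Prog-like lists and no other was in 59 of them (34.3%, against 25.8% of regions genome-wide), and a peak of Tumor Sox9 alone in 37 (21.5%, against 8.45%). Of the 50 regions of clade a, 20 were of Tumor Sox9 alone and 11 of the Prog-like lists alone. Of the 85 regions of clade b, 37 were of the Prog-like lists alone and 4 of Tumor Sox9 alone. Regions with a peak in all 5 lists numbered 9 (5.23%, against 9.75%).

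**Figure D5:**
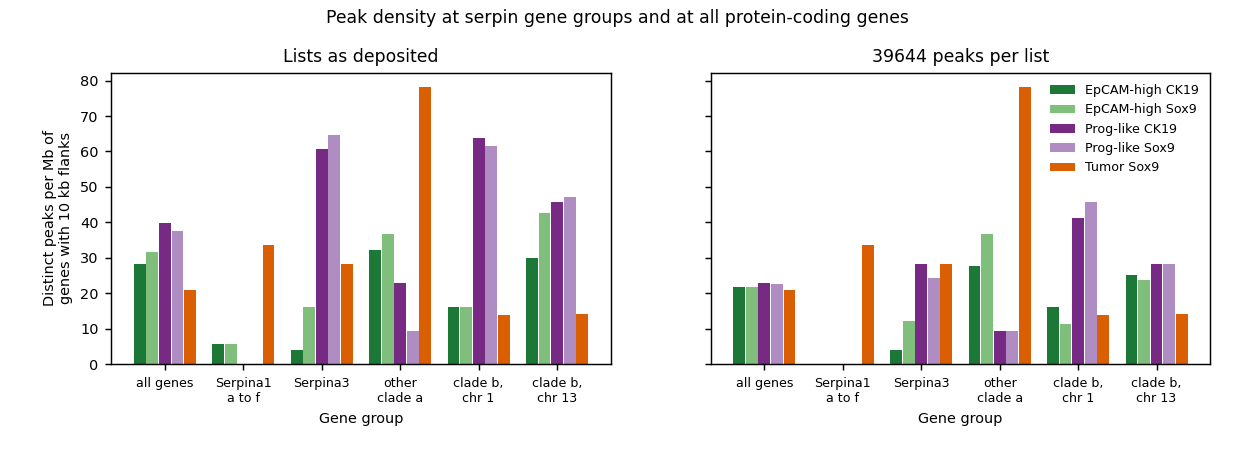
Distinct peaks per Mb of gene bodies with 10 kb flanks (bars from 0) for all protein-coding genes and 5 serpin groups (horizontal axis) in the 5 lists (colours), as deposited on the left and at 39644 peaks per list on the right. Tumor Sox9 is highest at the 8 other clade a genes (78.3 per Mb), and the Prog-like lists reach 63.9 and 61.6 per Mb at clade b of chromosome 1 (41.1 and 45.6 at equal length) and 60.7 and 64.7 at Serpina3 (28.3 and 24.3).

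The RefSeq table held 63 promoters for 54 of the serpins, and their motif matches differed by clade. CEBP matches stood in 12 of 22 clade a promoters (54.5%) and 4 of 32 clade b promoters (12.5%), against 10.8% of the 32851 promoters of the table. AP-1 matches stood in 8 of 32 clade b promoters (25.0%) and in 4 of 22 of clade a (18.2%, all in Serpina1 copies), against 7.81%. TATA box matches were found in 18 of 63 serpin promoters (28.6%, against 13.6%), GC box matches in 8 (12.7%, against 35.7%) and TEAD matches in 13 (20.6%, against 14.7%). HNF1 matches stood in 2 promoters (3.17%, against 2.54%), a PU.1 match in 1 (1.59%, against 3.20%) and an HNF4 match in 0 (against 0.475%). Copies with like sequence are counted separately, a match is not a bound site, and letters not found in these windows say nothing of the factor.

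The proteases that serpins act on, and inhibitors of other families, were taken from 7 lists with 43 genes in all. Proteases of coagulation and the contact system (F2, F7, F9, F10, F11, F12, Klkb1 and Proc) had gene-end peaks at 1, 2, 2, 1 and 8 of 8 genes. F2 (prothrombin), the main target of Serpinc1 and Serpind1 once activated, had one in Tumor Sox9 alone. The plasminogen system (Plat, Plau, Plaur and Plg), whose activators Serpinb2 blocks, stood at 3, 3, 3, 4 and 3 of 4, and the complement proteases at 3, 3, 2, 1 and 3 of 4. Granule proteases of neutrophils and killer cells stood at 0, 0, 1, 1 and 1 of 6. They include neutrophil elastase, a target of Serpina1, and granzyme B, a target of Serpinb9. Among the lysosomal cysteine proteases (2, 2, 4, 4 and 2 of 4), Ctsk and Ctss carried theirs in both Prog-like lists and no other. At equal length neither gene kept its gene-end peak, and this set stood at 2 of 4 in every list. Epithelial proteases stood at 5, 5, 3, 3 and 3 of 5, with Prss8 and Tmprss2 in the EpCAM-high lists alone, and inhibitors of other families at 6, 7, 6, 5 and 9 of 12. Over the 43 genes the counts were 20, 22, 21, 19 and 29, and 20, 20, 13, 11 and 29 at equal length. The shares over all protein-coding genes were 57.8%, 57.7%, 57.4%, 54.4% and 51.1%. At equal length they were 53.2%, 51.1%, 48.1%, 45.9% and 51.1%.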

How the data were processed

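The deposited data were 5 peak lists in the narrowPeak layout. Build mm10, deepTools, HOMER, MACS2 and Bowtie 1.1.2 are named, without their roles, per the submitters' processing notes. Pooling of samples, the transposase shift, duplicates and reads that fit several places are not described in those notes. Each peak has the fold enrichment deposited by the authors, which is a linear ratio, and the authors' −log10 p and −log10 q. Folds were used to describe and rank peaks within their own list.

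Gene positions were those of RefSeq for GRCm38.p6, the same build, whose promoter table gave the strand and starts of 54 of the 62 serpins. Peaks were overlapped with gene ends (1000 bp) and loci (10 kb flanks) by at least 1 bp in Python 3.11.15 with pandas 2.3.3 and numpy 2.4.6, and the overlap step was tested on simulated data. Intervals are Clopper-Pearson (scipy 1.17.1). Promoters were aligned with Biopython 1.88. With 1 list per condition no test was made, and members are not replicates.

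The symbol rule finds 63 genes, of which 1 is not reported here. Members and lists were chosen with earlier results of these data known. Named were all members with a gene-end peak, all outside clades a and b, and up to 5 further members each of clades a and b with the most locus peaks, which left ties; Serpina1a, Serpina1f, Serpinb6e, Serpinb9c and the groups without peaks were named in addition, once their values had been seen. Alternatives were lists of equal length, −log10 q of 5 or more, 50% of the peak in the window, a 2500 bp window, annotated starts alone, gene bodies alone and 50 kb flanks.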

Additional observations from a re-analysis of the deposited data

Results flagged for a closer look

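Serpinb6a was singled out because the Prog-like and EpCAM-high lists differed in opposite directions for CK19 and for Sox9. For CK19 the Prog-like list held 9 locus peaks and the EpCAM-high list 4, a difference of 5. For Sox9 the Prog-like list held 9 and the EpCAM-high list 11, a difference of -2. The contrast between CK19 and Sox9 was not tested, since each condition has 1 list. At equal list length the differences were 3 and 2, in the same direction.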

How the results depend on the processing

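Among the alternative values, 151 stayed within 1.5 times the value reported and 104 moved beyond it; every result is a count from 1 list per condition, and no test was possible. Counts below follow the sequence of lists used above. No paired analysis was possible because the lists are not tied to replicates, and for the same reason no fit leaves out a replicate. Stricter thresholds and narrower windows count fewer peaks by construction, and the cause of any further change was not tested.

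At 39644 peaks per list, gene-end peaks stood at 8, 9, 10, 8 and 23 serpins and distinct locus peaks numbered 34, 35, 50, 52 and 60. By clade the latter were 7, 11, 8, 7 and 28 (clade a), 23, 20, 36, 38 and 15 (clade b), 0, 0, 0, 0 and 4 (clade c), 0, 2, 0, 0 and 3 (clade d), 1, 1, 1, 1 and 1 (clade e), 0, 0, 0, 1 and 4 (clade f), 2, 0, 2, 1 and 3 (clade g), 0, 0, 0, 0 and 0 (clade h), 1, 1, 3, 4 and 2 (clade i). Prog-like Sox9 without EpCAM-high Sox9 gave 5 serpins, EpCAM-high Sox9 without Tumor Sox9 1, Prog-like Sox9 without Tumor Sox9 4, Prog-like CK19 without Prog-like Sox9 2 and EpCAM-high Sox9 without EpCAM-high CK19 2. Both Prog-like lists and no other gave 4 serpins, and Tumor Sox9 alone 13.

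With a −log10 q of 5 or more, gene-end peaks stood at 8, 11, 14, 13 and 14 serpins. Tumor Sox9 without EpCAM-high Sox9 gave 5, Tumor Sox9 without Prog-like Sox9 11, EpCAM-high CK19 without EpCAM-high Sox9 0 and Tumor Sox9 alone 5. With a window of 2500 bp the gene-end counts were 15, 20, 21, 18 and 25. EpCAM-high CK19 without Prog-like CK19 then gave 7, EpCAM-high Sox9 without Prog-like Sox9 13, EpCAM-high Sox9 without Tumor Sox9 7, Prog-like CK19 without Prog-like Sox9 4 and the reverse 1, EpCAM-high CK19 without EpCAM-high Sox9 3 and the reverse 8, and Tumor Sox9 alone 7. At annotated starts alone, Prog-like CK19 without EpCAM-high CK19 gave 5, Tumor Sox9 without EpCAM-high Sox9 8 and the reverse 4. Requiring 50% of the peak inside the window gave 2 for Prog-like CK19 without Prog-like Sox9.

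In gene bodies alone the distinct peaks numbered 28, 42, 53, 50 and 42, by clade 4, 7, 7, 5 and 16 (clade a), 21, 29, 36, 38 and 13 (clade b), 0, 0, 1, 1 and 4 (clade c), 0, 0, 0, 0 and 2 (clade d), 1, 3, 6, 4 and 1 (clade e), 0, 0, 0, 0 and 2 (clade f), 1, 1, 0, 0 and 2 (clade g), 0, 1, 0, 0 and 0 (clade h), 1, 1, 3, 2 and 2 (clade i). With 50 kb flanks they numbered 87, 112, 157, 148 and 107, by clade 17, 25, 27, 25 and 35 (clade a), 39, 46, 75, 75 and 31 (clade b), 2, 2, 3, 4 and 5 (clade c), 1, 2, 2, 2 and 3 (clade d), 4, 6, 15, 11 and 5 (clade e), 3, 6, 6, 6 and 8 (clade f), 11, 13, 12, 10 and 13 (clade g), 1, 4, 3, 3 and 1 (clade h), 9, 8, 14, 12 and 6 (clade i). The alternatives for Tumor Sox9 alone and for both Prog-like lists alone were added after seeing the data.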
